A study of Mus musculus with 16 samples.

Results

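Glycam1 and 5 genes that guide lymphocytes into lymphoid tissue (Cxcl13, Ccl19, Ccr7, Cxcl12 and Chst4) were followed in mouse lung across 4 groups, as 6 of the 19938 genes that the array annotation names. A gene was represented by the probe set named for that symbol alone and, where there were several, by the one with the highest mean over the 16 arrays. Glycam1 was chosen by its measured fall with house dust mite (HDM) in both genotypes, so its HDM values are a description and were not tested. The other 5 were listed for their part in lymphocyte homing, with earlier results of these data known. All 6 were measured, and no filter on dim genes was applied.

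The groups were Vldlr-/- (knockout, KO) mice given HDM, KO mice given saline, wild-type (WT) B6129SF2/J mice given HDM and WT mice given saline, with 4 arrays each. HDM is an allergen extract used to produce asthma-like inflammation. Each challenge was 10 µl into the nose, holding 25 µg of HDM in the HDM groups, on 5 days of the week over 6 weeks, and saline groups received saline on the same schedule. Vldlr encodes the very low density lipoprotein receptor. The strain label is given for WT mice alone, so a difference between genotypes can also reflect strain background, with age and sex not given in the sources used here. RNA came from total lung, with each array a biological replicate per the labels. The labels do not say how many animals stand behind an array, and a p-value reflects the spread from array to array.

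High endothelial venules are the vessels through which naive lymphocytes enter lymph nodes and other lymphoid tissue. Their mucins, GlyCAM-1 among them, carry sulphated sugars that L-selectin on lymphocytes grips, and the sulphate is added by enzymes such as the one Chst4 encodes. Rolling cells are then stopped and sorted by chemokines: CCL19 draws T cells and mature dendritic cells through CCR7, CXCL13 draws B cells into follicles through CXCR5, and CXCL12 acts through CXCR4. In lung, such structures occur in bronchus-associated lymphoid tissue, which forms under repeated exposure to antigens or infection. Glycam1 is also a milk protein gene of the mammary gland.

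Levels and changes below are on the log2 scale, where 1 unit is a doubling, and a level of one probe set cannot be set against that of another. To pass, a gene needed a p under 0.05 in limma's moderated test after adjustment over all 19938 genes. Array medians ranged from 8.78 to 8.85, and any pair of arrays correlated at 0.980 to 0.995. Vldlr lay between 9.40 and 9.91 on the 8 KO arrays, against 10.27 to 10.92 on the 8 WT arrays. Lung epithelial markers were on every array, with a mean level over 8 genes of 12.40 to 12.81 on KO HDM arrays, against 12.81 to 12.89 on KO saline arrays, and 12.76 to 12.90 on WT HDM arrays, against 12.71 to 12.89 on WT saline arrays. Of these 8 markers 3 fell with HDM in KO (Ager, Aqp5 and Cyp2f2). In WT 1 rose (Scgb1a1, a call that ended without WT saline 2 and 3, limma adjusted p = 0.105) and 1 fell (Aqp5). Under HDM 3 were lower in KO than in WT (Sftpb, Scgb1a1 and Cyp2f2). The share of all genes that passed was 8.84% with HDM in KO, 17.6% with HDM in WT and 11.7% between KO and WT under HDM. What part this shift in epithelial markers had in the KO HDM results was not tested. On WT saline 2 and 3 the eosinophil-associated ribonuclease gene Rnase2a was at 11.47 and 11.22, far from WT saline 1 and 4, which had 8.54 and 9.68, and near the WT HDM arrays at 11.27 to 12.42. Values without these arrays are given for the HDM changes of Glycam1, Ccl19 and Cxcl13 in WT, for calls that ended without them and for the saline differences of Glycam1 and Cxcl12.

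The sequences upstream of 3 genes that were lower with HDM in one or both genotypes are shown, because Glycam1, Ccl19 and Cxcl13 varied together across arrays. Each is the 250 bases before the RefSeq start in build GRCm38.p6, 5′ to 3′ on the strand of the gene, and capitals mark motif matches. The Glycam1 stretch is chr15:103565082-103565331 on the minus strand, that of Cxcl13 is chr5:95956689-95956938 on the plus strand, and that of Ccl19 is chr4:42756366-42756615 on the minus strand.
Glycam1 promoter: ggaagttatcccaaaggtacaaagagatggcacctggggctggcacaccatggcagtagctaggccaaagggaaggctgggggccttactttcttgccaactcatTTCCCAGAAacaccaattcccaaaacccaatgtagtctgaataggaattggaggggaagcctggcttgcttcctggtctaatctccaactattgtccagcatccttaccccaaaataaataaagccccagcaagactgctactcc
Cxcl13 promoter: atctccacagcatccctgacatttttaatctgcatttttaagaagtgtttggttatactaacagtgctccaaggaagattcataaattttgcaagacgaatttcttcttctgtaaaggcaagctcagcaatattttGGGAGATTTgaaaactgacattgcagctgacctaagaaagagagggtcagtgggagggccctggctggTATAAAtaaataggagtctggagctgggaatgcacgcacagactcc
Ccl19 promoter: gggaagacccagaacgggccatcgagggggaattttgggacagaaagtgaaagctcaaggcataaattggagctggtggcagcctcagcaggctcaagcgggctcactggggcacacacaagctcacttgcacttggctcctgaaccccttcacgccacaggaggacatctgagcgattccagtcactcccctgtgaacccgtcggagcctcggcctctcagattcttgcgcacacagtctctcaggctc
With these sequences in view, 6 motifs were searched on both strands of the 5 members with a RefSeq promoter entry, and no matches overlapped. They were TATAAA, GGGAGATTT (a form preferred by RelB-containing NF-kB), a classical NF-kB form with 2 free bases in its middle, TTCNNNGAA (the core bound by STAT factors), TGAGTCA (bound by AP-1) and CACGTG (an E-box). The Glycam1 stretch held TTCNNNGAA as TTCCCAGAA, with its first base 145 bases before the start, a motif present in 7.01% of 32817 such windows. The Cxcl13 stretch held GGGAGATTT, 114 bases before the start and present in 0.283% of windows, and TATAAA, 46 bases before the start and present in 12.4%. Since the motifs were not chosen apart from these sequences, a share of windows does not measure how unlikely a match was. The Chst4 stretch, not shown, held TGAGTCA 59 bases before the start (4.46% of windows), and none of the 6 motifs was found in those of Ccl19 and Cxcl12. The classical NF-kB form (1.41% of windows) and CACGTG (6.02%) matched none of the 5. A match is a run of letters and not evidence of binding.

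Glycam1, the mucin that carries L-selectin ligands, was lower on each of the 8 HDM arrays than on any saline array. In KO lungs its level was 8.31, 8.19, 8.52 and 8.40 on HDM arrays 1 to 4, against 10.55, 9.79, 9.90 and 10.70 on saline arrays 1 to 4. In WT lungs it was 8.60, 7.74, 8.40 and 8.65 on HDM arrays, against 10.84, 11.51, 10.23 and 10.30 on saline arrays. The HDM groups thus lay at nearly the same level, 8.35 ± 0.14 in KO and 8.35 ± 0.42 in WT, while the saline groups were spread more widely, at 10.24 ± 0.46 in KO and 10.72 ± 0.59 in WT (SD, n = 4 each). All 8 HDM levels, from 7.74 to 8.65, lay under the array medians of 8.78 to 8.85. At levels this dim a difference between KO and WT, or the full size of a fall, may not show. The change with HDM was -1.88 in KO, a 3.69-fold lower level, and -2.37 in WT, a 5.18-fold lower level. Among 19938 genes this was the lowest change in both comparisons, a rank of the values that chose the gene and not a test. Without WT saline 2 and 3 the WT change was -2.22. In total lung RNA, fewer cells of a type and less RNA per cell cannot be told apart.

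**Figure D1:**
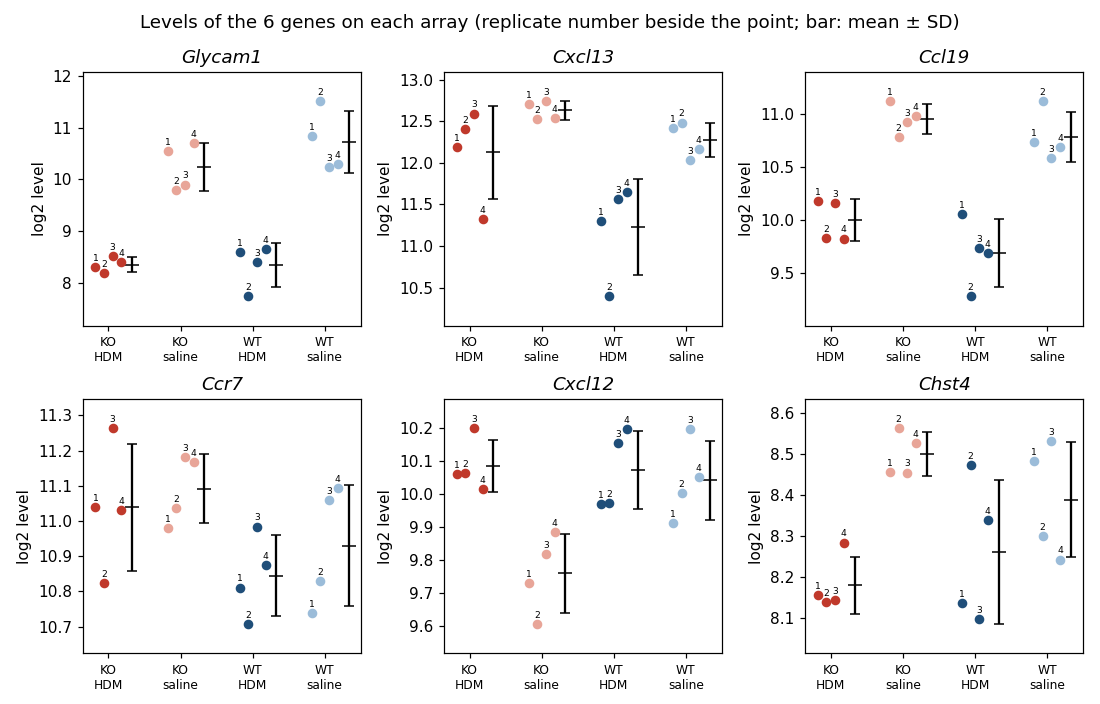
Log2 level (y axis) of the 6 genes on each of the 16 arrays, by group on the x axis, with the replicate number beside each point and the mean ± SD as a bar. Glycam1 and Ccl19 lie lower on all 8 HDM arrays than on all 8 saline arrays, whereas Cxcl13 on KO HDM arrays 1 to 3 stays near the saline levels.

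Glycam1 was not chosen by a difference between genotypes. Its choice by a fall in both genotypes used the same values, so the differences below do not stand apart from that choice. Under HDM the KO minus WT difference was 0.01 (SE 0.26, 95% interval -0.54 to 0.55, limma adjusted p = 0.992), and it changed sign, to -0.02, after quantile normalization. Under saline the difference was -0.48 (SE 0.26, interval -1.03 to 0.06, limma adjusted p = 0.716), with overlapping ranges. It was -0.22 without WT saline 2, -0.33 without WT saline 2 and 3, and -0.65 to -0.22 over all single arrays left out. The difference between the HDM changes of the genotypes (KO minus WT) was 0.49 (SE 0.37, interval -0.28 to 1.26, limma adjusted p = 0.553), and it was 0.23 without WT saline 2, 0.29 without WT HDM 2 and 0.34 without WT saline 2 and 3. In order of level WT saline came first, followed by KO saline, KO HDM and WT HDM, and of these neighbours KO saline and KO HDM alone had ranges that did not overlap.

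No milk protein gene passed. Over all genes 0.231% to 17.6% passed in the 5 limma comparisons. Of 7 milk protein genes measured, among them the caseins Csn2 and Csn1s1 and whey acidic protein Wap, 0 passed in any, and 0 had an unadjusted p under 0.05. Their mean level was 6.90 to 6.95 on KO HDM arrays, against 6.90 to 7.04 on KO saline arrays, and 6.82 to 7.04 on WT HDM arrays, against 6.97 to 7.06 on WT saline arrays. These means lay under the array medians of 8.78 to 8.85, and genes this dim may show no change even where there is one. A mammary source of Glycam1 RNA was not tested.

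Chst4 encodes a sulphotransferase of high endothelial venules that acts on the sugars of L-selectin ligands. In KO lungs it was at 8.16, 8.14, 8.14 and 8.28 on HDM arrays, against 8.46, 8.56, 8.45 and 8.53 on saline arrays, so the ranges did not overlap. It fell by 0.32 in KO lungs (SE 0.08, 1.25-fold lower, limma adjusted p = 0.0198), and this call was lost when any one of KO saline 2 or 4 or KO HDM 1, 2 or 3 was left out (changes of -0.31 to -0.30, adjusted p of 0.0520 to 0.0656). In WT lungs its levels were 8.14, 8.47, 8.10 and 8.34 on HDM arrays, against 8.48, 8.30, 8.53 and 8.24 on saline arrays. Those ranges overlap, and the change of -0.13 (SE 0.08, interval -0.30 to 0.04, limma adjusted p = 0.265) did not pass. KO and WT did not differ past the threshold, with -0.08 (interval -0.25 to 0.09, adjusted p = 0.571) under HDM and 0.11 (interval -0.06 to 0.28, adjusted p = 0.860) under saline. KO saline was the highest of its 4 groups, followed by WT saline, WT HDM and KO HDM, and every neighbour in that order overlapped. All 16 Chst4 levels, from 8.10 to 8.56, lay under the array medians of 8.78 to 8.85, and a gene this dim may not show its full change.

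Ccl19 encodes the CCR7 ligand that stromal cells of T cell zones make. In KO lungs its level was 10.18, 9.83, 10.16 and 9.83 on HDM arrays, against 11.12, 10.78, 10.93 and 10.98 on saline arrays. In WT lungs it was 10.05, 9.28, 9.73 and 9.69 on HDM arrays, against 10.73, 11.12, 10.59 and 10.69 on saline arrays. As with Glycam1, no HDM array reached the lowest saline array. Ccl19 fell by 0.95 in KO lungs (SE 0.14, 1.94-fold lower, limma adjusted p = 0.000466) and fell by 1.09 in WT lungs (SE 0.14, 2.13-fold lower, limma adjusted p = 0.000198). Without WT saline 2 and 3 the WT change was -1.02 (adjusted p = 0.00333). The fall differed between genotypes by 0.14 (SE 0.20, interval -0.28 to 0.56, adjusted p = 0.776), which did not pass, and by 0.07 without WT saline 2 and 3.

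KO and WT differed in Ccl19 by 0.31 under HDM (interval 0.01 to 0.61, limma adjusted p = 0.171) and by 0.17 under saline (interval -0.13 to 0.47, adjusted p = 0.888), neither past the threshold. Its levels ran from KO saline, through WT saline and KO HDM, to WT HDM, and WT saline and KO HDM alone did not overlap. The symbol Ccl19 is carried by 5 probe sets, and the reference table of build GRCm38.p6 lists 3 Ccl19 pseudogenes and a gene with Ccl19 as a synonym, Gm2023, on chromosome 4 with it. The signal may therefore come from several near-identical copies. The 5 probe sets stayed within 0.18 of each other on every array, 2 of them had identical values, and their changes with HDM ranged from -1.01 to -0.93 in KO and from -1.15 to -0.95 in WT.

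Ccr7 encodes the receptor for CCL19 on naive T cells and migrating dendritic cells, and its change did not pass in any comparison. In KO lungs it was at 11.04, 10.82, 11.26 and 11.03 on HDM arrays, against 10.98, 11.04, 11.18 and 11.17 on saline arrays. In WT lungs it was at 10.81, 10.71, 10.98 and 10.87 on HDM arrays, against 10.74, 10.83, 11.06 and 11.09 on saline arrays. The groups overlapped in both genotypes. The change with HDM was -0.05 in KO (SE 0.09, interval -0.25 to 0.15, limma adjusted p = 0.783) and -0.09 in WT (SE 0.09, interval -0.29 to 0.11, adjusted p = 0.530). KO arrays were higher than WT arrays by 0.19 under HDM (interval -0.005 to 0.39, adjusted p = 0.200) and by 0.16 under saline (interval -0.04 to 0.36, adjusted p = 0.769), and neither difference passed. The order was KO saline, KO HDM, WT saline and WT HDM, with overlap between all neighbours.

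Markers of mature dendritic cells, which carry CCR7, rose in 4 of 9 cases with HDM in KO lungs (Ccl17, Ccl22, Cd83 and Fscn1) and in 3 of 9 in WT lungs (Ccl17, Cd80 and Socs2), where Il12b fell. Under HDM 6 of 9 were higher in KO than in WT. Set against these, 4.96% of all genes rose with HDM in KO, 7.86% rose in WT, and 5.84% were higher in KO than in WT under HDM. Without WT saline 2 and 3 the fall of Il12b in WT did not pass (limma adjusted p = 0.106). The counts of higher markers were then 2 of 9 in KO, 1 of 9 in WT and 5 of 9 between genotypes. Their mean level was 9.82 to 10.30 on KO HDM arrays, against 9.57 to 9.79 on KO saline arrays, and 9.51 to 9.86 on WT HDM arrays, against 9.36 to 9.60 on WT saline arrays. Of 8 T cell markers, Cd8a fell in KO, and in WT Cd4 rose while Cd8a and Cd3d fell, and these WT calls ended without WT saline 2 and 3 (adjusted p of 0.0643 to 0.150). The part of these cells in the level of Ccr7 was not tested.

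Cxcl13 encodes the chemokine of B cell follicles. In KO lungs it was at 12.19, 12.41, 12.59 and 11.32 on HDM arrays, against 12.71, 12.53, 12.74 and 12.54 on saline arrays. HDM arrays 1 to 3 lay near or within the saline range and HDM array 4 well below it. In WT lungs it was at 11.30, 10.39, 11.56 and 11.65 on HDM arrays, against 12.42, 12.48, 12.04 and 12.17 on saline arrays, with no overlap. Cxcl13 fell by 1.05 in WT lungs (SE 0.25, 2.07-fold lower, limma adjusted p = 0.0103), and without WT saline 2 and 3 the change was -1.07 and did not pass (adjusted p = 0.0623). In KO lungs the change of -0.50 (SE 0.25, interval -1.03 to 0.02, adjusted p = 0.244) did not pass, and without KO HDM 4 it was -0.23 (adjusted p = 0.530). Without WT HDM 2 the WT change was -0.77 (adjusted p = 0.0255).

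Under HDM, Cxcl13 was higher in KO than in WT lungs by 0.90 (SE 0.25, 1.87-fold, limma adjusted p = 0.0275), although KO HDM 4 lay within the WT HDM range. That call ended in a fit of these groups alone (adjusted p = 0.125), with a variance trend (adjusted p = 0.0572) and without any one of KO HDM 1, 2 or 3 or WT HDM 2 (0.62 to 0.88, adjusted p of 0.0737 to 0.0964). Under saline the KO arrays were all above the WT arrays, but the difference of 0.35 (SE 0.25, interval -0.17 to 0.88, adjusted p = 0.846) did not pass. The HDM changes of the genotypes differed by 0.55 (SE 0.35, interval -0.20 to 1.29, limma adjusted p = 0.479), and by 0.27 without WT HDM 2, so a smaller fall in KO lungs was not shown. KO saline was highest, then WT saline, KO HDM and WT HDM, and the step between the saline groups was the only one without overlap.

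Markers of B cells, the cells CXCL13 attracts, were measured beside it. Of 9 B cell markers, 0 passed in KO lungs (limma, 2 with an unadjusted p under 0.05) and 1 fell in WT lungs, the complement receptor Cr2 (-0.82, SE 0.22, adjusted p = 0.0197), which follicular dendritic cells carry too and whose call ended without WT saline 2 and 3 (adjusted p = 0.111). Over all genes 8.84% passed in KO and 9.72% fell in WT. Between KO and WT under HDM, where Cxcl13 was higher in KO, all 9 markers had a higher mean in KO, by 0.14 to 0.74 with a median of 0.40, but 0 passed (limma, 5 with an unadjusted p under 0.05). All 9 were lowest on WT HDM 2 within its group, as were 4 of the 6 homing genes (Glycam1, Cxcl13, Ccl19 and Ccr7), against 33.9% of all genes. The list's mean level was 10.18 to 10.86 on KO HDM arrays, against 10.13 to 10.66 on KO saline arrays, and 9.40 to 10.43 on WT HDM arrays, with WT HDM 2 the lowest, against 10.16 to 10.49 on WT saline arrays. Of 4 follicular dendritic cell markers, the Fc receptor gene Fcgr2b, which B cells and macrophages carry too, rose in both genotypes (in WT not without WT saline 2 and 3, adjusted p = 0.0551) and Cr1l fell in KO. The part of these cells in the level of Cxcl13 was not tested.

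**Figure D2:**
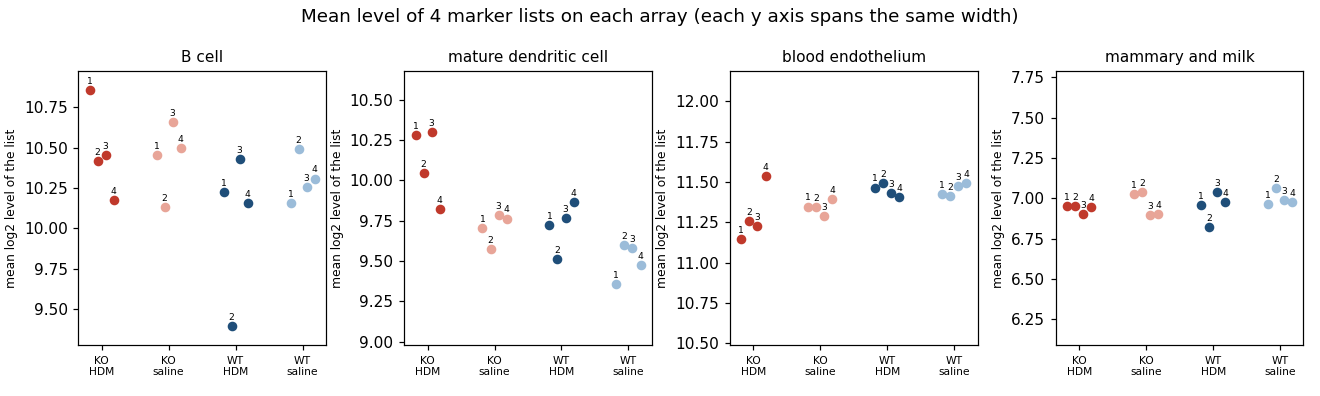
Mean log2 level (y axis) of 4 marker lists on each array, by group on the x axis, with replicate numbers beside the points. WT HDM 2 lies lowest for B cell markers, mature dendritic cell markers are highest in KO HDM, and the milk protein list stays between 6.82 and 7.06 on all arrays.

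Cxcl12, whose product holds and attracts CXCR4-bearing cells, took the opposite direction in KO lungs. There it was at 10.06, 10.07, 10.20 and 10.02 on HDM arrays, against 9.73, 9.61, 9.82 and 9.88 on saline arrays, with no overlap. It rose by 0.33 (SE 0.08, 1.25-fold, limma adjusted p = 0.0126), and the call was lost without KO saline 2 (0.27, adjusted p = 0.0529) or KO HDM 3 (0.29, adjusted p = 0.0516). In WT lungs it was at 9.97, 9.97, 10.15 and 10.20 on HDM arrays, against 9.91, 10.00, 10.20 and 10.05 on saline arrays. The WT change was 0.03 (SE 0.08, interval -0.13 to 0.19, adjusted p = 0.792) and turned to -0.01 after quantile normalization, and it was 0.09 without WT saline 2 and 3 (adjusted p = 0.564).

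Among the 4 groups KO saline alone lay apart for Cxcl12. The HDM levels of KO and WT differed by 0.01 (interval -0.15 to 0.17, limma adjusted p = 0.946), and KO HDM, WT HDM and WT saline overlapped in that order. KO saline arrays were all below WT saline arrays, by -0.28 (SE 0.08, interval -0.44 to -0.12), yet the difference did not pass over all genes (adjusted p = 0.189; -0.22 without WT saline 2 and 3), nor did the difference between the HDM changes (0.29, SE 0.11, adjusted p = 0.191). Fibroblasts are a main source of CXCL12 in many tissues. With HDM in KO lungs 4.96% of all genes rose and 3.88% fell. Of 6 fibroblast markers 2 rose there (Col1a1 and Col1a2) and 2 fell (Dcn and Lum), while blood endothelial markers rose in 1 of 7 cases (Vwf). The part of these cells was not tested.

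**Figure D3:**
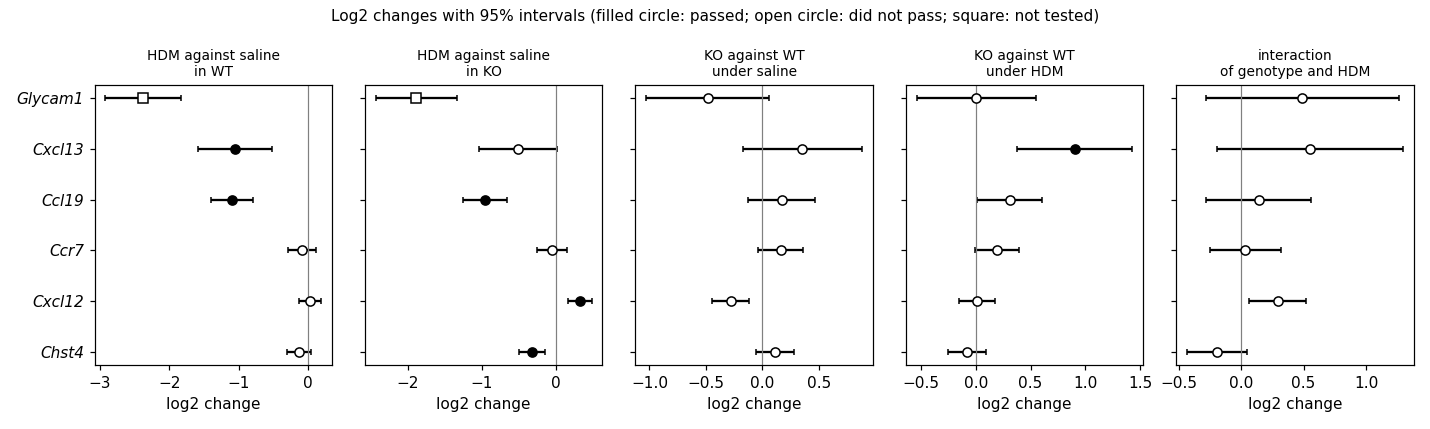
Log2 change (x axis) with its 95% interval for the 6 genes (y axis) in the 5 comparisons, as HDM minus saline, KO minus WT and the KO minus WT difference of the HDM changes. Filled circles passed at an adjusted p under 0.05, open circles did not, and squares mark the untested HDM changes of Glycam1, -1.88 in KO and -2.37 in WT. The intervals at the squares take no account of how Glycam1 was chosen and are not a test.

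Counted together, 3 of the 5 members other than Glycam1 passed for HDM in KO lungs, where 8.84% of all genes did. Of these Ccl19 and Chst4 fell (3.88% of all genes fell) and Cxcl12 rose (4.96% rose). In WT lungs 2 of the 5, Ccl19 and Cxcl13, passed and fell, where 17.6% of all genes passed 7.86% rising and 9.72% falling. The median change of the 5 was -0.32 in KO and -0.13 in WT, against -0.03 and -0.05 over all genes. Under HDM 1 of the 6 differed between genotypes (Cxcl13, higher in KO), where 11.7% of genes did 5.84% being higher and 5.83% lower in KO. Under saline 0 of 6 did (limma, 0.231% of all genes, 0.0903% higher and 0.14% lower in KO, 1 of the 6 with an unadjusted p under 0.05), and 0 of 6 showed a different HDM change between genotypes (limma, 0.802% of all genes, 0.356% with the higher and 0.446% with the lower change in KO, 1 of the 6 with an unadjusted p under 0.05). In both cases that 1 was Cxcl12.

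Within groups, some members deviated together from array to array. The deviations of Glycam1 and Ccl19 from their group means had Pearson r = 0.77 over 16 arrays, those of Cxcl13 and Ccl19 0.61 and those of Glycam1 and Cxcl13 0.45. Ccr7 and Cxcl12, which changed differently between groups, had r = 0.72, and Chst4 ran against Ccl19 with r = -0.68. These values are a description, since all genes of an array share its RNA and normalization, and the low values on WT HDM 2 and the high ones on WT saline 2 weigh on the first of them.

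**Figure D4:**
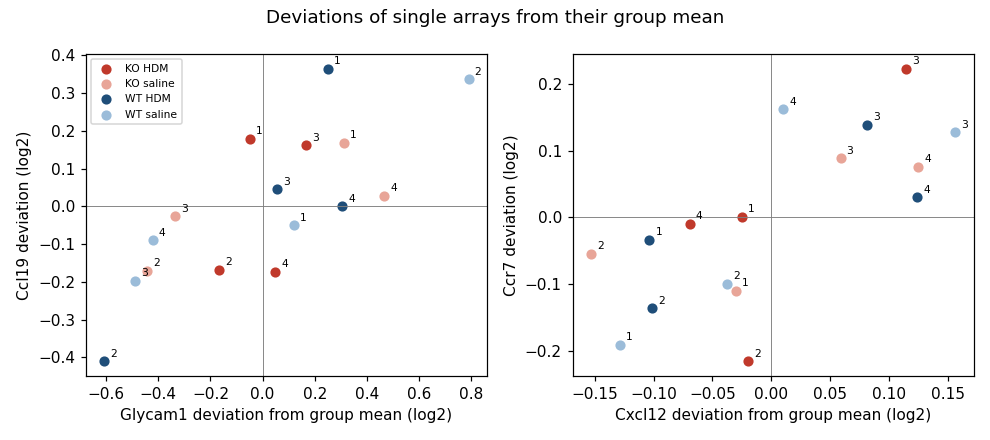
Deviations of single arrays from their group mean (log2), for Glycam1 (x) against Ccl19 (y) on the left and Cxcl12 (x) against Ccr7 (y) on the right, coloured by group with replicate numbers. Glycam1 and Ccl19 (r = 0.77) are both lowest on WT HDM 2, and Cxcl12 and Ccr7 (r = 0.72) are mostly above their means on arrays numbered 3 or 4.

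Over the 16 arrays, the genes whose levels were most like Glycam1 among 18331 candidates were Bpifa2 (r = 0.94), Ccl19 (0.92), Dtx1 (0.91), Cxcl5 (0.91) and Cbarp (0.90). Such likeness is set mainly by the difference between HDM and saline arrays, and 135 genes had r above 0.8. By deviations from group means the nearest were Vmn1r29 (0.88), Fbxw24 (0.82), Olfr1208 (0.81), Tmed6 (0.80) and Otor (0.79). None of those 5 was among the nearest by level. For Ccl19 the nearest by level were Ccl20 (0.94), Stra6 (0.94) and Cxcl5 (0.94), and for Cxcl13 they were Mrto4 (0.93), Ankdd1a (0.93) and Pla2g5 (0.92). Chst4 was most like Ank3 (0.90), Gfra1 (0.89) and Galnt3 (0.88), Cxcl12 like Eif3l (0.89), Faap24 (0.86) and Rgl1 (0.85), and Ccr7 like Gnai2 (0.85), Itm2c (0.82) and H2-Aa (0.80).

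The rest of the homing machinery was read from 5 lists with 43 measured genes, chosen with earlier results known. In KO lungs 9 rose and 2 fell with HDM, and in WT lungs 4 rose and 7 fell, with list medians of 0.02 and -0.07. Over all genes 4.96% rose and 3.88% fell in KO, and 7.86% rose and 9.72% fell in WT. Under HDM 8 were higher and 2 lower in KO than in WT, where 5.84% of all genes were higher and 5.83% lower, but 1 of 43 passed in a fit of those groups alone. Without WT saline 2 and 3 the genes that passed numbered 8 with HDM in KO, 5 with HDM in WT and 5 in KO against WT under HDM. Of the calls named below, those that ended were Gcnt1, Chst2, Ccr6, Lta and S1pr1 in WT (adjusted p of 0.129 to 0.228), Cxcr4 and Selplg in KO (0.0574 and 0.0604) and Ltb between genotypes (0.0624). With any 1 array left out, the calls named below for Ccl20, Il7r, Gcnt1 and St3gal4 in KO, for Ccl20, Il7r, Emcn and Itgb2 in WT, for Itgb2 in KO, and for Cxcr4 and Podxl between genotypes held, and each of the others ended without 1 to 11 of the 16 arrays. Under saline 0 of 43 passed (limma, 4 with an unadjusted p under 0.05), where 0.231% of all genes did. For the difference between HDM changes 0 of 43 passed (limma, 5 with an unadjusted p under 0.05), where 0.802% of all genes did. With shares this low, a count of 0 of 43 says little about these genes.

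Of 6 genes for L-selectin, its other ligand scaffolds and addressins, 2 rose in KO and 1 fell in WT, where 4.96% of all genes rose in KO and 9.72% fell in WT. Cd34, a sialomucin of vessels and progenitor cells, rose by 0.31 in KO (SE 0.07, adjusted p = 0.0144), as did Selplg, the P-selectin ligand of leukocytes, by 0.40 (SE 0.12, adjusted p = 0.0381). The endothelial sialomucin Emcn fell by 0.34 in WT (SE 0.07, adjusted p = 0.00407). Podxl, a podocalyxin of endothelium, was lower in KO than in WT under HDM (-0.43, SE 0.10, adjusted p = 0.00997). In that comparison 3 of 7 blood endothelial markers were also lower in KO (Cdh5, Tek and Kdr, 4 with an unadjusted p under 0.05), against 5.83% of all genes. The Cdh5 call ended without WT saline 2 and 3 (limma adjusted p = 0.0665), and the part of endothelium was not tested. The mucosal addressin Madcam1 was at 8.02 ± 0.05 in KO HDM lungs and 8.03 ± 0.18 in KO saline lungs (adjusted p = 0.954), and at 7.98 ± 0.12 in WT HDM lungs and 8.17 ± 0.07 in WT saline lungs (adjusted p = 0.0937, limma, SD, n = 4 each).

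Of 8 enzymes that build the sugars of selectin ligands, 2 rose and 0 fell in each genotype, where 4.96% of all genes rose in KO and 7.86% in WT. Without WT saline 2 and 3, 2 of 8 rose in KO and 0 of 8 in WT. Gcnt1, which starts the core branch that carries them, rose by 0.79 in KO (SE 0.16, limma adjusted p = 0.00512) and by 0.50 in WT (SE 0.16, adjusted p = 0.0407). St3gal4, a sialyltransferase, rose by 0.33 in KO (SE 0.07, adjusted p = 0.00635), and Chst2, a sulphotransferase with a role like that of Chst4, rose by 0.28 in WT (SE 0.09, adjusted p = 0.0447). Fut7, the fucosyltransferase of selectin ligands, did not pass in KO (-0.04, adjusted p = 0.775) or WT (-0.13, adjusted p = 0.199).

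Among further chemokines and receptors, Ccl20 fell in both genotypes. It attracts CCR6-bearing B cells and dendritic cells to mucosal lymphoid tissue. Its level was 9.25, 9.0, 9.19 and 9.25 on KO HDM arrays, against 10.04, 9.98, 10.25 and 10.15 on KO saline arrays, and 9.29, 8.71, 9.10 and 9.0 on WT HDM arrays, against 9.96, 10.01, 9.68 and 10.31 on WT saline arrays. It fell by 0.93 in KO (SE 0.12, limma adjusted p = 0.000157) and fell by 0.96 in WT (SE 0.12, adjusted p = 0.000168), with no overlap in either. Its receptor Ccr6 fell by 0.44 in WT (SE 0.13, adjusted p = 0.0333). Cxcr4, the receptor of CXCL12, rose by 0.41 in KO (SE 0.12, adjusted p = 0.0420), with overlapping ranges, and was higher in KO than in WT under HDM by 0.62 (SE 0.12, adjusted p = 0.00515). Cxcr5, the receptor of CXCL13, did not pass in KO (0.07, adjusted p = 0.845) or WT (-0.12, adjusted p = 0.645).

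Of 12 genes of lymphotoxin signalling and B cell survival, which help build lymphoid tissue, 3 rose in KO, and 1 rose and 1 fell in WT. The shares over all genes were 4.96% rising and 3.88% falling in KO, and 7.86% rising and 9.72% falling in WT. The WT counts of this list lay near those shares. The interleukin 7 receptor chain Il7r, found on T cells and innate lymphoid cells, rose by 0.94 in KO (SE 0.17, limma adjusted p = 0.00204) and by 0.68 in WT (SE 0.17, adjusted p = 0.0131). Tnfsf13b, the B cell survival factor BAFF, rose by 0.41 in KO (SE 0.10, adjusted p = 0.0137) and was higher in KO than in WT under HDM by 0.40 (SE 0.10, adjusted p = 0.0165). Lymphotoxin alpha (Lta) fell by 0.25 in WT (SE 0.08, adjusted p = 0.0476), and lymphotoxin beta (Ltb) was higher in KO than in WT under HDM by 0.35 (SE 0.11, adjusted p = 0.0397). Of 10 adhesion and egress genes, to be set against the same shares, 1 rose and 1 fell in KO, and 1 rose and 3 fell in WT. The leukocyte integrin chain Itgb2 rose by 0.77 in KO (SE 0.13, adjusted p = 0.00162) and by 0.75 in WT (SE 0.13, adjusted p = 0.00208). S1pr1, the receptor that lets lymphocytes leave tissue and that endothelium also carries, fell by 0.30 in KO (SE 0.08, adjusted p = 0.0282) and fell by 0.28 in WT (SE 0.08, adjusted p = 0.0278).

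**Figure D5:**
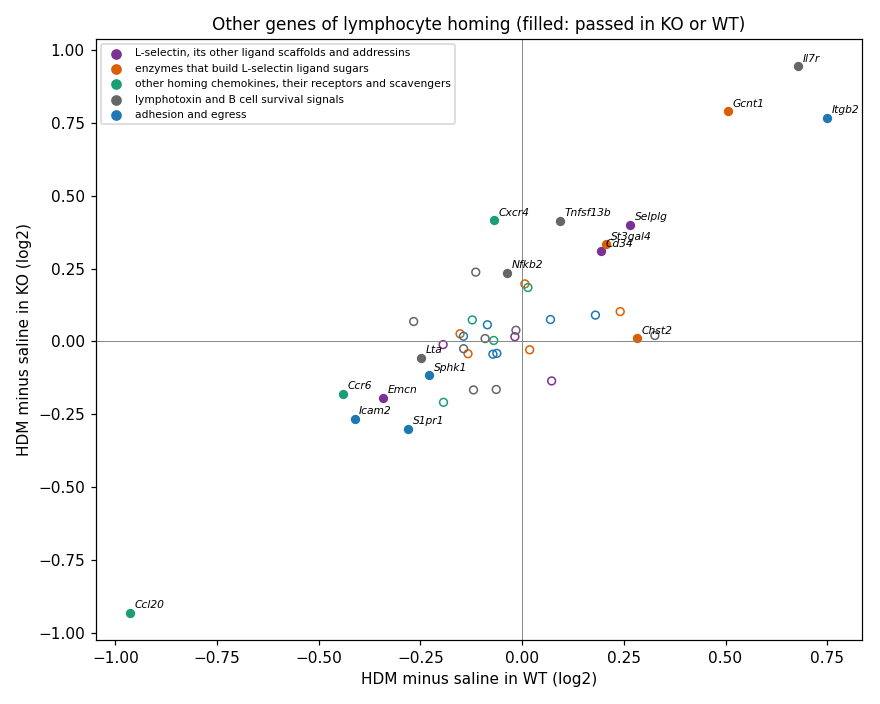
HDM minus saline (log2) in WT (x axis) and KO (y axis) for 43 other genes of lymphocyte homing, coloured by list, with filled points for genes that passed in either genotype. Ccl20 lies apart at -0.96 in WT and -0.93 in KO, while Il7r, Itgb2 and Gcnt1 lie at the opposite end.

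Clock genes changed with HDM in WT lungs. Of 13 circadian clock genes 6 rose and 1 fell with HDM in WT lungs, and 0 passed in KO lungs (limma, 1 with an unadjusted p under 0.05), against 17.6% of all genes in WT and 8.84% in KO. Between KO and WT under HDM 1 was higher and 6 were lower in KO, against 11.7% of all genes. Without WT saline 2 and 3, 3 rose and 1 fell in WT, and the genotype counts were as before. The largest of these changes was that of Dbp, an output gene of the clock, which rose by 1.37 in WT (SE 0.13, adjusted p = 3.54e-05). Their mean level was 10.11 to 10.36 on KO HDM arrays, against 10.09 to 10.28 on KO saline arrays, and 10.28 to 10.74 on WT HDM arrays, against 10.20 to 10.25 on WT saline arrays. The part of the clock in the changes of the homing genes was not tested.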

How the data were processed

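Labelled sense-strand DNA from total lung RNA was hybridised to 16 Affymetrix whole-transcript arrays. The table holds deposited log2 values. The submitters' processing notes name Affymetrix Expression Console and RMA, a method that corrects background, normalizes across arrays and summarises probes. Tool versions were not given in the sources used here.

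Of 35556 probe sets, 21789 had 1 gene symbol, 1621 had several and 12146 were not named, and 21698 had a gene ID found in the RefSeq table of build GRCm38.p6. The highest-mean probe set was kept for each of 19938 genes. In R 4.3.3, limma 3.58.1 fitted the group means (lmFit, contrasts.fit and eBayes; two-sided, 12 residual degrees of freedom, no covariate), with Benjamini-Hochberg adjustment over all genes of a comparison and a threshold of 0.05, and the fit was tested on simulated data. SE is limma's, and SD is the spread between arrays. The number of arrays limits the precision. Members and lists were chosen with earlier results of these data known. Named genes were the 6 members, genes of the pathway and marker lists, Vldlr, and the nearest genes by Pearson r (5 for Glycam1 by each measure, 3 for the others), without predicted genes, small RNAs and antigen receptor segments. Rnase2a was named after its values were seen. Also tried were quantile normalization, equal array medians, a filter at the 50th percentile of level, a variance trend with robust estimation, a fit of the groups compared alone, averaged probe sets, a block for the replicate number, WT saline 2 and 3 left out together and each array left out in turn.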

Additional observations from a re-analysis of the deposited data

Results flagged for a closer look

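In the KO HDM group Chst4 lay at 8.28 on array 4, apart from the other 3 arrays at 8.16, 8.14 and 8.14, a gap large for the range of the group. Each of the 6 genes was examined in each of the 4 groups, 24 combinations in all, and this was the 1 that stood out, where chance gives about 1 in 20. Without KO HDM 4 the change of Chst4 with HDM in KO lungs was -0.35 (limma adjusted p = 0.0124).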

How the results depend on the processing

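Outside arrays left out one at a time, 208 of 213 tested values of single members kept their direction and their side of the threshold. The exceptions were the Cxcl13 calls given above and a pair of near-zero values that changed sign with quantile normalization, Cxcl12 with HDM in WT (-0.0103) and Glycam1 in KO against WT under HDM (-0.0226). With 1 array of the groups compared left out, 247 of 272 tested values did so, 11 calls were lost and 14 values changed sign. The sign changes were all in differences that did not pass: Cxcl12 with HDM in WT (-0.0115 to 0.0834), Ccr7 with HDM in KO (-0.127 to 0.0194), KO against WT under HDM for Glycam1 (-0.197 to 0.107) and Cxcl12 (-0.0264 to 0.0531), and the Ccr7 difference of HDM changes (-0.0415 to 0.105). The members called with HDM numbered 1 to 3 of 5 in KO, and 2 of 5 throughout in WT (1 without WT saline 2 and 3), and under HDM 0 to 1 of 6 differed by genotype, 0 with a variance trend or a fit of those groups alone. The filter on dim genes left Chst4 out, and a fit of the groups alone gives no difference of HDM changes. The cause of the lost calls was not tested.

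Counts over all genes moved more. With HDM in WT 3505 genes passed (1568 higher, 1937 lower), 1057 (646 higher, 411 lower) without WT saline 2 and 3, 2289 among genes above the median level, and 1960 to 3799 with 1 array left out. With HDM in KO 1763 passed (1034 to 2673). KO against WT under saline gave 46 (14 to 66), 19 above the median level, 98 in a fit of those groups alone and 10 without WT saline 2 and 3. Under HDM it gave 2327 (968 to 3831), and 390 in a fit of those groups alone. The difference of HDM changes gave 160 (41 to 1019), and 12 without WT saline 2 and 3.

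With the replicate number as a block the difference of HDM changes gave 258 genes. The numbers were not taken to pair arrays, since deviations of same-numbered arrays correlated above 0.1 in 7 of 24 cases and 6 of 16 arrays were closest to one of their own number. No member's call changed under the block, but limma adjusted p moved in both directions. That of Ccr7 in KO against WT under HDM went from 0.200 to 0.0578. For Cxcl12 it went from 0.189 to 0.0821 under saline and from 0.191 to 0.0993 for the difference of HDM changes. That of Chst4 with HDM in KO went from 0.0198 to 0.0321.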

Other observations

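Cxcl12 and Ccr7 both lay mostly below their group means on arrays numbered 1 or 2 and mostly above them on arrays numbered 3 or 4. Of the 8 arrays numbered 1 or 2, 8 were below their group mean for Cxcl12 and 7 for Ccr7, and of the 8 numbered 3 or 4, 7 were above it for each gene. The labels do not say what a replicate number stands for, and this split was noticed after the values were seen. Glycam1 showed no such split, with 4 of 8 arrays numbered 1 or 2 and 5 of 8 numbered 3 or 4 above the mean.

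The thymus is another lymphoid tissue near the lung. Of 7 thymus markers, among them Rag1, Ptcra and Foxn1, 0 passed in any of the 5 limma comparisons, with 0 to 2 at an unadjusted p under 0.05. Lymphatic endothelial markers passed in 0 of 6 cases for HDM in KO lungs (limma, 1 at an unadjusted p under 0.05) and in 2 of 6 in WT lungs, where Mmrn1 rose and Pdpn fell. Over all genes 8.84% passed in KO and 17.6% in WT. The Mmrn1 call ended without WT saline 2 and 3 (adjusted p = 0.191).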
